A study of Mus musculus with 2 samples.

Results

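Transcription factors of the dorsal telencephalon and its cortical projection neurons were followed in RNA of the embryonic mouse brain: Tbr1, Eomes, Bcl11a, Bcl11b, Fezf2, Emx1, Emx2, Lhx2 and Bhlhe22. They were taken by gene symbol, through the Ensembl identifier, and are 9 of 43346 annotated genes in the mm10 tables. The tissue was whole brain of C57BL/6J embryos at 14.5 days of development, with no treatment or mutation named in the labels. Polyadenylated RNA was sequenced in 2 libraries, numbered biological replicates 1 and 2, both from littermates of mixed sex. The labels do not say whether the libraries hold different embryos, so their spread may be technical only. Both libraries form 1 group without a contrast between conditions. With 1 library against 1 there is no test; each difference below is a description of these libraries, with an error that is either the SD over both (n = 2) or a counting interval.

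The cerebral cortex arises from the dorsal wall of the telencephalon. There, radial glial progenitors that express Emx1, Emx2 and Lhx2 line the ventricle, intermediate progenitors that express Eomes (also called Tbr2) divide away from it, and glutamatergic neurons settle in the cortical plate, deep layers first. Tbr1 marks early-born and corticothalamic neurons, Fezf2 and Bcl11b (Ctip2) act in the subcerebral projection neurons that send axons to the brainstem and spinal cord, and Bcl11a (Ctip1) and Bhlhe22 (Bhlhb5) act in the specification of projection neurons and of cortical areas. Several of these genes are also used elsewhere in the brain: Bcl11b in striatal neurons, Lhx2 and Emx2 in the diencephalon, and Bcl11a and Bhlhe22 in the hindbrain and spinal cord.

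All 9 factors were detected at 1 TPM, a level per transcript length scaled to the library total, or more in both libraries. Their 9 TPM values summed to 589 in replicate 1 and 327 in replicate 2, with a median of 57.4 and 15.6 TPM, where the median protein-coding gene at 1 TPM or more stood at 19.6 and 19.7 TPM. Lhx2 alone gave 38.5% of that sum in replicate 1 and 37.3% in replicate 2. The expected counts of the 9 genes added up to 104171 and 58508, out of 103493289 and 97539730 on annotated genes. A count of 0 would have allowed a share of up to 2.9e-06% of replicate 1's counts and 3.08e-06% of replicate 2's (3 counts, counting error only).

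**Figure D1:**
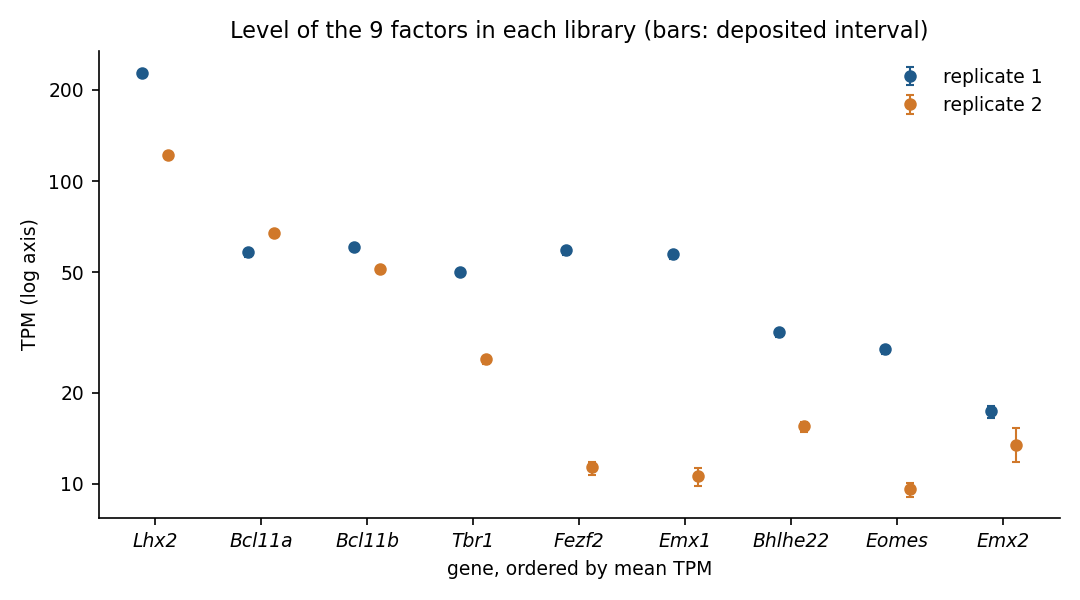
TPM of the 9 factors (log axis) in replicate 1 (blue) and replicate 2 (orange), ordered by mean TPM; bars are the lower and upper TPM bounds in the deposited tables. Emx1 and Fezf2 lie at 57.4 and 59.0 TPM in replicate 1 and at 10.6 and 11.4 TPM in replicate 2, while Bcl11a is the member that is higher in replicate 2.

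Lhx2, a LIM homeodomain factor that selects cortical identity in progenitors against hem and antihem fates, was the most abundant of the 9 in both libraries. It lies at chr2:38339281-38369733 on the plus strand and stood at 227 TPM in replicate 1 but 122 TPM in replicate 2 (174 ± 74.2 TPM, SD, n = 2). It ranked 556 and 1078 among 21474 protein-coding genes. Its level per length exceeded that of every other member in each library, and in the log2 ratio of TPM + 1 of replicate 2 over replicate 1 it stood at -0.89.

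Emx1 and Emx2, homeodomain factors named after the fly gene empty spiracles, mark the dorsal telencephalon, with Emx1 the more restricted to it. Emx1 (chr6:85187438-85204462, plus strand) stood at 57.4 TPM on 5089 expected counts in replicate 1 and at 10.6 TPM on 848 expected counts in replicate 2 (34.0 ± 33.1 TPM, SD, n = 2). Emx2 (chr19:59458372-59465357, plus strand) stood at 17.3 TPM on 3108 expected counts and at 13.5 TPM on 1879 expected counts (15.4 ± 2.74 TPM, SD, n = 2). The libraries thus lay 5.41-fold apart for Emx1 and 1.29-fold apart for Emx2. On log2(TPM + 1) the ratio was -2.33 for Emx1 and -0.34 for Emx2. Counts scaled by TMM library sizes gave -2.49 for Emx1 (95% exact counting interval -2.60 to -2.39) and -0.63 for Emx2 (-0.72 to -0.55). The order of the 2 genes differed: Emx1 was 3.31 times the level of Emx2 in replicate 1 and 0.789 times in replicate 2.

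Eomes and Tbr1 are T-box factors used in succession as an intermediate progenitor becomes a neuron. Eomes (chr9:118478212-118486132, plus strand) reached 28.0 TPM in replicate 1 but 9.62 in replicate 2 (18.8 ± 13.0 TPM, SD, n = 2), on 5703 and 1760 expected counts. Tbr1 (chr2:61802930-61814114, plus strand) stood at 49.9 and 25.7 TPM (37.8 ± 17.1 TPM, SD, n = 2), on 12623 and 5809 expected counts. Both were lower in replicate 2, Eomes 2.91-fold and Tbr1 1.94-fold. Tbr1 was the higher of the pair in each library, and the ratio of Tbr1 to Eomes was 1.78 in replicate 1 and 2.67 in replicate 2.

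Fezf2 and Bcl11b belong to the same subcerebral neuron programme, in which Fezf2, a zinc finger repressor, lies upstream of Bcl11b. Fezf2 (chr14:12342094-12348189, minus strand) stood at 59.0 TPM on 8408 expected counts in replicate 1 and at 11.4 TPM on 1458 expected counts in replicate 2 (35.2 ± 33.7 TPM, SD, n = 2). Bcl11b (chr12:107910403-108003602, minus strand) stood at 60.8 and 51.1 TPM (55.9 ± 6.84 TPM, SD, n = 2), on 21065 and 16189 expected counts. The 2 genes were at nearly the same level in replicate 1 and far apart in replicate 2: Fezf2 was 5.19-fold lower there, Bcl11b 1.19-fold lower. Their log2 ratios of scaled counts were -2.44 (95% exact counting interval -2.52 to -2.36) and -0.29 (-0.32 to -0.26).

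Bcl11a, the zinc finger paralog of Bcl11b, was the only one of the 9 that was higher in replicate 2. It lies at chr11:24078056-24174123 on the plus strand and stood at 58.1 TPM in replicate 1, against 67.4 TPM in replicate 2 (62.7 ± 6.58 TPM, SD, n = 2), on 14022 and 14746 expected counts. Bhlhe22, a basic helix-loop-helix repressor with a single exon at chr3:18054174-18057517 on the plus strand, stood at 31.6 and 15.6 TPM (23.6 ± 11.3 TPM, SD, n = 2), on 6755 and 2987 expected counts. Bhlhe22 thus lay 2.03-fold lower in replicate 2 by plain TPM, next to Tbr1 and Lhx2 in size of difference. The order of the levels in replicate 1 was Lhx2, Bcl11b, Fezf2, Bcl11a, Emx1, Tbr1, Bhlhe22, Eomes and Emx2, of which the 4 from Bcl11b to Emx1 spanned only 57.4 to 60.8 TPM. In replicate 2 it was Lhx2, Bcl11a, Bcl11b, Tbr1, Bhlhe22, Emx2, Fezf2, Emx1 and Eomes. Only Lhx2 kept its place. In the order of the means the gap between neighbours exceeded the SD of both genes between Lhx2 and Bcl11a and between Bcl11b and Tbr1, and at no other step.

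The 9 factors did not move as a unit between the libraries. Of the 9, 8 were lower in replicate 2 and 1 was higher, with a median log2 ratio of -0.93, against a median of 0.01 over all 15240 genes that averaged at least 1 TPM (48.8% of them lower). Emx1, Fezf2 and Eomes, 3 of the 9, were 2-fold or more lower on log2(TPM + 1), compared with 1.14% of those genes (173 of 15240). None of the 9 was 2-fold or more higher, compared with 2.38% of those genes. Tbr1, Lhx2 and Bhlhe22 lay at ratios of -0.93, -0.89 and -0.98, just inside the 2-fold line on that scale, and passed it when expected counts were scaled by TMM or by DESeq2 size factors, which made 6 of 9, where the share of all genes on those scales was 1.82%. Bhlhe22 also passed it with FPKM, with a pseudocount of 0.1 and with none, which made 4 of 9 beside 1.16%, 1.71% and 1.89% of all genes. For the gene lists below, 2-fold is on log2(TPM + 1), which hides some larger plain ratios of low genes. In the order of all 15240 ratios from the lowest, Emx1 took place 21, Fezf2 22, Eomes 54, Bhlhe22 186, Tbr1 222 and Lhx2 251, while Emx2 took place 2773, Bcl11b 3871 and Bcl11a 10522. The deposited TPM bounds of the libraries did not overlap for any of the 9, and this was so for 66.5% of all genes compared, so these bounds do not set the factors apart.

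**Figure D2:**
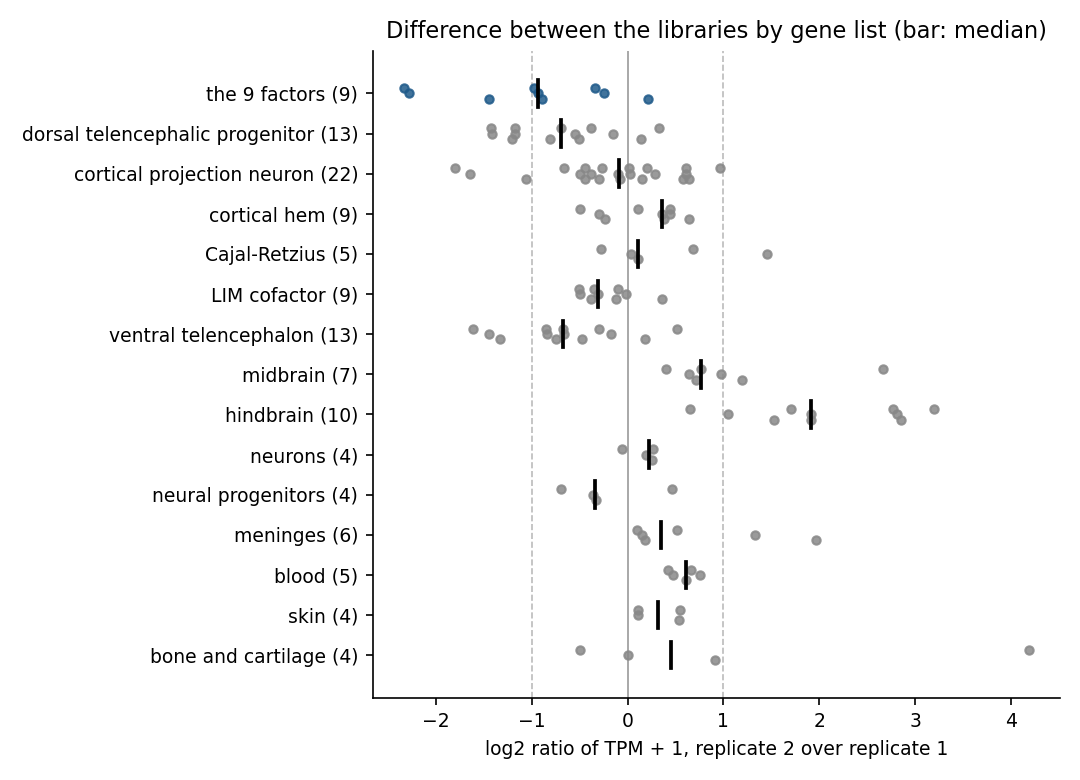
Log2 ratio of TPM + 1 of replicate 2 over replicate 1 for the 9 factors (blue) and for 14 gene lists (grey); each point is a gene, black bars are list medians and dashed lines mark 2-fold. The factors run from -2.33 to 0.21, and the hindbrain list lies wholly above 0.

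Levels of genes that mark other brain regions differed between the libraries as well. Ventral telencephalon markers, 13 genes, had a summed level of 704 and 422 TPM and a median ratio of -0.68. Of the 13, 11 were lower in replicate 2 and 2 were higher, with 3 of them 2-fold or more lower (Dlx1, Nkx2-1 and Lhx8). Hindbrain markers, 10 genes that include 7 Hox genes, summed to 27.8 TPM in replicate 1, against 173 TPM in replicate 2, with 10 of 10 higher and 9 of them 2-fold or more. The highest of them, Hoxa5, Hoxb5 and Hoxb3, stood at 4.10 and 35.8 TPM, 2.76 and 33.4 TPM, and 3.82 and 31.8 TPM. The remaining gene, Egr2, stood at 0.32 and 1.08 TPM. Midbrain markers, 7 genes, summed to 86.3 and 152 TPM, with 7 of 7 higher and Pax2 (1.59 and 15.4 TPM) and Pax5 (3.24 and 8.70 TPM) 2-fold or more on that scale; En1 (6.15 and 13.1 TPM) was 2.12-fold higher in plain TPM. Their part in the differences of the 9 factors was not tested. In such bulk samples, fewer cells of a type and less RNA per cell cannot be told apart. The 4 general neuron markers Tubb3, Dcx, Stmn2 and Elavl3 summed to 3725 and 3771 TPM, most of it Tubb3 (2753 and 2640 TPM), and the other 3 were higher in replicate 2, with a list median ratio of 0.22. The 4 neural progenitor markers summed to 1216 and 949 TPM, most of it Vim (1012 and 789 TPM), with a median ratio of -0.34. Of these 4, 3 were lower in replicate 2 and Nes (24.2 and 33.7 TPM) was higher. Meningeal, blood and skin markers were higher in replicate 2 in 6 of 6, 5 of 5 and 4 of 4 genes, with summed levels of 192 and 400 TPM, 303 and 482 TPM, and 62.8 and 85.6 TPM. Their median ratios were 0.35, 0.61 and 0.32, and Col1a1 (36.6 and 146 TPM) and Col1a2 (56.5 and 143 TPM) made up most of the difference in the meningeal sum. Krtdap (25.5 and 4.22 TPM) and Dmkn (11.8 and 2.69 TPM), epidermal genes outside the skin list, were lower in replicate 2, unlike the 4 on the list. The 4 bone and cartilage genes summed to 65.3 and 67.7 TPM, of which Col2a1 stood at 64.3 and 45.3 TPM, Ibsp at 0.17 and 20.3 TPM, Runx2 at 0.60 and 2.01 TPM and Acan at 0.21 TPM in both. No marker on these lists was listed at 0 in either library.

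Of 13 dorsal telencephalic progenitor genes, 11 were lower in replicate 2 and 5 were 2-fold or more lower, with a median ratio of -0.69. Among them were the proneural factor Neurog2 (82.1 and 35.1 TPM) and the doublesex-related factors Dmrta2 (18.4 and 6.26 TPM) and Dmrt3 (5.86 and 1.56 TPM). The highest gene of the list, Nr2f1, a nuclear receptor that patterns cortical areas, stood at 507 and 347 TPM. Pax6, the paired-box factor of radial glia, stood at 63.2 and 48.2 TPM, a ratio of -0.38, beside -0.34 for Emx2 on that scale. Scaled counts gave -0.63 for Emx2, so the likeness is one of TPM only.

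Genes of cortical projection neurons were split. Of 22 such genes, 12 were lower and 10 higher in replicate 2, with a median ratio of -0.09, and 3 were 2-fold or more lower: Neurod6, a factor of glutamatergic cortical neurons (156 and 49.2 TPM), Neurod2 (83.8 and 39.5 TPM) and Slc17a7, which encodes the vesicular glutamate transporter VGLUT1 (18.4 and 4.54 TPM). Lmo3 and Cntn2, the other high members, stood at 97.1 and 90.3 TPM and at 91.7 and 70.0 TPM. Slc17a6, which encodes VGLUT2 and is used by glutamatergic neurons below the cortex as well, was higher in replicate 2, at 24.2 and 37.6 TPM. The projection neuron list thus held genes with ratios as low as -1.80 and as high as 0.96. Pax6, Slc17a6, Egr2, En1 and the genes named from 5 further lists lie outside the rule for named genes and were chosen after their values were seen. These lists are the neuron, neural progenitor, meningeal, bone and cartilage and Cajal-Retzius lists.

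Lhx2 acts together with the cofactor Ldb1, for which the Lmo proteins compete and to which the Ssbp proteins bind. Ldb1 stood at 443 and 311 TPM, Ssbp3 at 213 and 196 TPM, and Lmo4 at 149 and 120.3 TPM. Of the 9 genes of that list, 8 were lower in replicate 2, none by 2-fold, with a median ratio of -0.31. Ldb1 was therefore above Lhx2 in both libraries on the TPM scale. Genes of the cortical hem, the signalling centre that borders the Lhx2 domain, were low: the list of 9 had a median of 3.75 TPM in both libraries, its highest gene Wnt5a stood at 12.4 and 17.2 TPM, and 6 of 9 were higher in replicate 2, none by 2-fold. Of 5 Cajal-Retzius markers, 4 were higher in replicate 2, with the extracellular matrix gene Reln at 80.1 and 86.2 TPM and Lhx5 at 7.92 and 23.5 TPM.

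Each factor was set against a close paralog. Fezf2 was above Fezf1, its relative in the olfactory and hypothalamic lineages, in both libraries, by 4.37-fold in replicate 1 and 1.501-fold in replicate 2, with Fezf1 at 13.5 and 7.57 TPM. Lhx2 was above Lhx9 by 4.36-fold and 1.91-fold, with Lhx9 at 52.0 and 63.9 TPM. Bhlhe22 was above Bhlhe23 by 4.501-fold and 1.92-fold, with Bhlhe23 at 7.02 and 8.08 TPM. In these 3 pairs the member of the 9 was the higher in both libraries, and the margin was smaller in replicate 2. Bcl11a and Bcl11b stood at a ratio of 0.956 in replicate 1 and 1.32 in replicate 2, so their order differed between the libraries. The third gene of the Tbr1 subfamily, the lymphocyte factor Tbx21, was nearly silent at 0.17 and 0.09 TPM.

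The coding sequences of these relatives share only runs shorter than a read of 101 bases. The longest run of identical bases between the coding sequences of the leading coding transcripts was 23 bases for Bcl11a and Bcl11b, 23 for Fezf2 and Fezf1, 20 for Bhlhe22 and Bhlhe23, 17 for Lhx2 and Lhx9, and 14 each for Emx1 and Emx2 and for Tbr1 and Eomes. The stretches shared by the zinc finger pairs are shown because they are the longest and limit how far a read could be shared.
Bcl11a and Bcl11b: accctggagaaacacatgaaaaa
Fezf2 and Fezf1: cacaacgacaagaagcctttcac
The first starts at base 2440 of the 2505 coding bases of Bcl11a-202 and at base 2356 of the 2436 of Bcl11b-203. The second starts at base 1216 of the 1365 of Fezf2-201 and at base 1180 of the 1425 of Fezf1-201. Both are in lower case because no part is singled out.

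Among 11063 protein-coding genes at a mean of 5 TPM and 100 expected counts or more, Emx1 and Fezf2 had the third and the fourth lowest ratios. The 10 lowest were Ly6g6e, Krtdap, Emx1, Fezf2, Gm43517, Arhgef39, Slc17a7, Dmkn, Xlr3b and Hist2h2aa2, with ratios from -2.53 to -1.68. Krtdap and Dmkn are epidermal genes, so the low end of the order is not cortical throughout. Eomes took place 17, Bhlhe22 97, Tbr1 121, Lhx2 142, Emx2 2112, Bcl11b 2991 and Bcl11a 8050 of 11063. By the distance between log2(TPM + 1) values over the 2 libraries, the gene nearest to Emx1 was Fezf2 and the gene nearest to Fezf2 was Emx1, at a distance of 0.10, and no other gene lay within 0.1 of either. The nearest gene to Tbr1 was Hdac10, at a distance of 0.06, that to Lhx2 was Tmem256 (0.06) and that to Bhlhe22 was Pkmyt1 (0.07), while the nearest to Eomes, Nr2e1, lay further off at 0.19. For Bcl11a, Bcl11b and Emx2, in contrast, 42, 75 and 49 genes lay within 0.1, so the nearest gene is one of many. The likeness rests on 2 libraries only.

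The transcript tables split 7 of the 9 genes into several annotated forms. Fezf2 and Bhlhe22 had 1 transcript each. Tbr1-201, which encodes the full-length T-box protein, held 97.9% of Tbr1's TPM in replicate 1 and 97.2% of it in replicate 2. Eomes-201 held 71.9% and 72.1%, with Eomes-202 at 14.6% and 13.6% and Eomes-203 at 13.5% and 14.2%. Emx1-201, the coding form, held 85.0% and 84.4%, and the rest was Emx1-202, an annotated retained-intron transcript. The shares of Eomes and Emx1 thus stayed within 1 percentage point although their levels differed 2.91-fold and 5.41-fold.

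**Figure D3:**
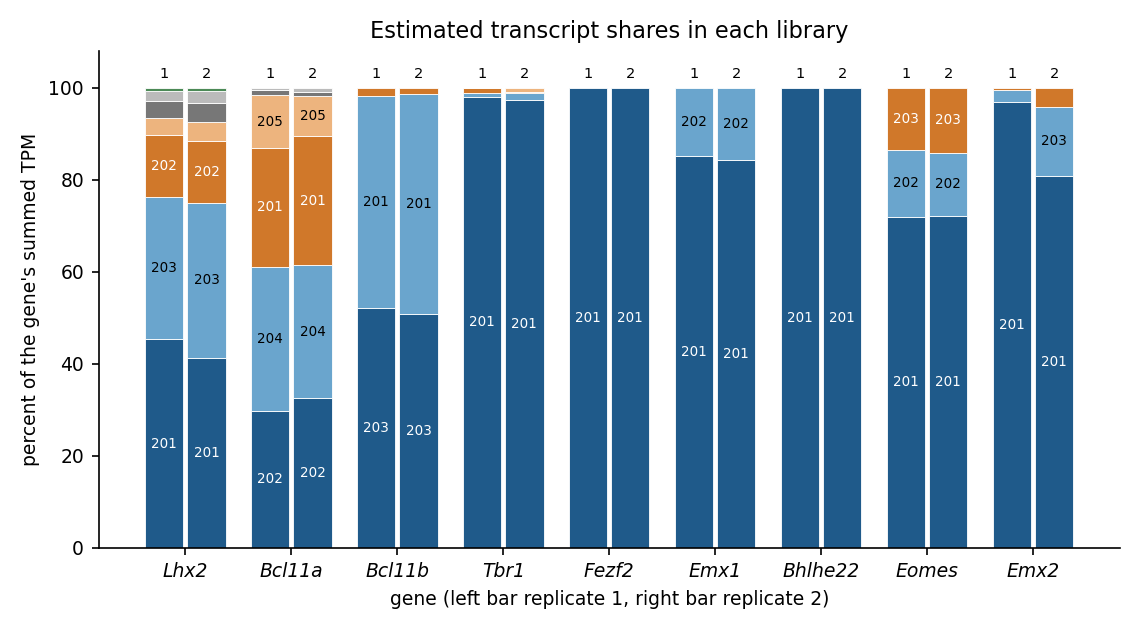
Percent of each gene's summed TPM by annotated transcript, left bar replicate 1 and right bar replicate 2; the number on a segment is the suffix of the transcript name, shown where the share is 8% or more. Emx2 is the gene whose split differs most between the libraries, with Emx2-201 at 96.8% and 80.9%.

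Emx2 was the exception. Emx2-201, its full-length form, held 96.8% of Emx2's TPM in replicate 1 and only 80.9% in replicate 2. Emx2-203, a processed transcript of only 422 bases, held 2.54% and 14.8%, on 6.15 and 26.0 expected counts. By expected counts Emx2-201 held 99.5% and 96.0%. Emx2-201 itself stood at 16.8 and 10.9 TPM. The largest share difference of a gene's transcripts was 15.9 points for Emx2 and 0.678 to 3.97 points for Tbr1, Bcl11a, Bcl11b, Emx1 and Lhx2, where the median over 6878 genes with several transcripts at 10 TPM or more was 4.39 points. A difference above that of Emx2 was found in 4.01% of these genes. The gene-level ratio of Emx2 was -0.36 in TPM without a pseudocount and -0.63 in scaled counts, and its deposited effective length was 2624 and 2280 bases. Junction reads, which were deposited for both libraries together, gave 759 reads for the first join of Emx2-201, 254 for its last, 3 for that of Emx2-203 and 14 for that of Emx2-202. The first and the last of these are 98.2% (95% exact interval 97.0 to 99.0) and 1.81% (0.994 to 3.02) of the 773 reads that leave the first exon. The joins that tell these forms apart are given in the mm10 reference transcripts of GENCODE, with capitals for the first 15 bases of the exon joined on.
Emx2-201 first join: gtcatcgcttccaagGGAACGACACAAGTC
Emx2-202 only join: gtcatcgcttccaagGTAAAAGTATGGTTT
The exon that Emx2-202 joins on starts at base 59463880 of chromosome 19, and that of the first join of Emx2-201 at 59461662.

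Lhx2, Bcl11a and Bcl11b each divided their signal among several coding forms. Lhx2-201 held 45.3% and 41.3% of the TPM, Lhx2-203 30.8% and 33.5%, and the short Lhx2-202 13.5% in both libraries. These forms start from different first exons. Of 4037 junction reads into the second exon, 69.7% (95% exact interval 68.2 to 71.1) came from the first exon of Lhx2-201, 20.8% (19.5 to 22.0) from that of Lhx2-203 and 7.36% (6.57 to 8.21) from that of Lhx2-202. The order of the first exons was thus the same by TPM share and by junction reads, while Lhx2-201 stood higher by junction reads. By expected counts Lhx2-201 held 67.2% and 63.2%, Lhx2-203 25.8% and 28.9%, and Lhx2-202 3.31% and 3.49%.

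In Bcl11a no form led in both libraries by TPM, while by expected counts Bcl11a-202 led in both, with 48.7% and 52.7%. Bcl11a-204 was highest in replicate 1 (31.2% and 28.8% of the TPM) and Bcl11a-202 in replicate 2 (29.8% and 32.6%), with Bcl11a-201 at 25.9% and 28.2% and a retained-intron form, Bcl11a-205, at 11.4% and 8.56%. These coding forms differ at the end of the protein and, for Bcl11a-204, at its start as well. Bcl11a-202 reads through the large zinc finger exon to its end (2505 coding bases). Bcl11a-201 leaves that exon from an inner donor (2319 coding bases) and Bcl11a-204 leaves it soon after entering (573 coding bases). The first join lies within the coding sequence of Bcl11a-202 and Bcl11a-201 but outside that of Bcl11a-204. Of 1117 junction reads into the last exon of the spliced forms, 81.3% (95% exact interval 78.9 to 83.5) came from the early donor shared by Bcl11a-204 and Bcl11a-203 and 14.0% (11.99 to 16.1) from the inner donor of Bcl11a-201. The separate first exon of Bcl11a-204 gave 10.5% (8.86 to 12.3) of 1309 reads into the second exon, below that form's TPM shares of 31.2% and 28.8%. The 2 joins share their acceptor at base 24172699 of chromosome 11 and leave from bases 24163288 and 24164888.
Bcl11a-204 last join: cccctgaccccgcggGTCCTTCACACACCC
Bcl11a-201 last join: gacgcagcgacacttGTCCTTCACACACCC
Both joins are shown as coding-strand bases, in capitals from the acceptor on.

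In Bcl11b the choice is an exon that is kept or skipped. Bcl11b-203, which skips it, held 52.0% and 50.8% of the TPM, and Bcl11b-201, which keeps it, 46.1% and 47.8%. By expected counts the order was the reverse, with Bcl11b-203 at 27.4% and 26.3% and Bcl11b-201 at 71.8% and 73.1%. Of 1611 junction reads that leave the second exon, 75.0% (95% exact interval 72.8 to 77.1) skipped that exon and 24.7% (22.6 to 26.9) entered it. The TPM shares and the junction shares therefore differed by more than their errors. The annotated forms also differ in length, 2888 bases for Bcl11b-203 and 8111 for Bcl11b-201, and the part of that in the difference was not tested. The 3 joins are printed to show the skip, which runs from base 107989465 to base 107917414 of chromosome 12 on the minus strand.
Bcl11b-203 skipping join: aggagaacattgcagGTAAAGATGAGCCTT
Bcl11b-201 entering join: aggagaacattgcagGGCCGTGCAGGCCTG
Bcl11b-201 leaving join: agtgtgagttgtcagGTAAAGATGAGCCTT
For Eomes-201 the 2 readouts lay nearer to each other than for Bcl11b. Of 618 reads leaving the fifth exon, 76.4% (72.8 to 79.7) followed Eomes-201, whose TPM shares of 71.9% and 72.1% lay just below that interval. Another 15.7% (12.9 to 18.8) followed Eomes-202 and 7.93% (5.92 to 10.3) other joins. Eomes-203, with 13.5% and 14.2% of the TPM, has 5 exons and no such join, so the readouts have unlike bases.

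**Figure D4:**
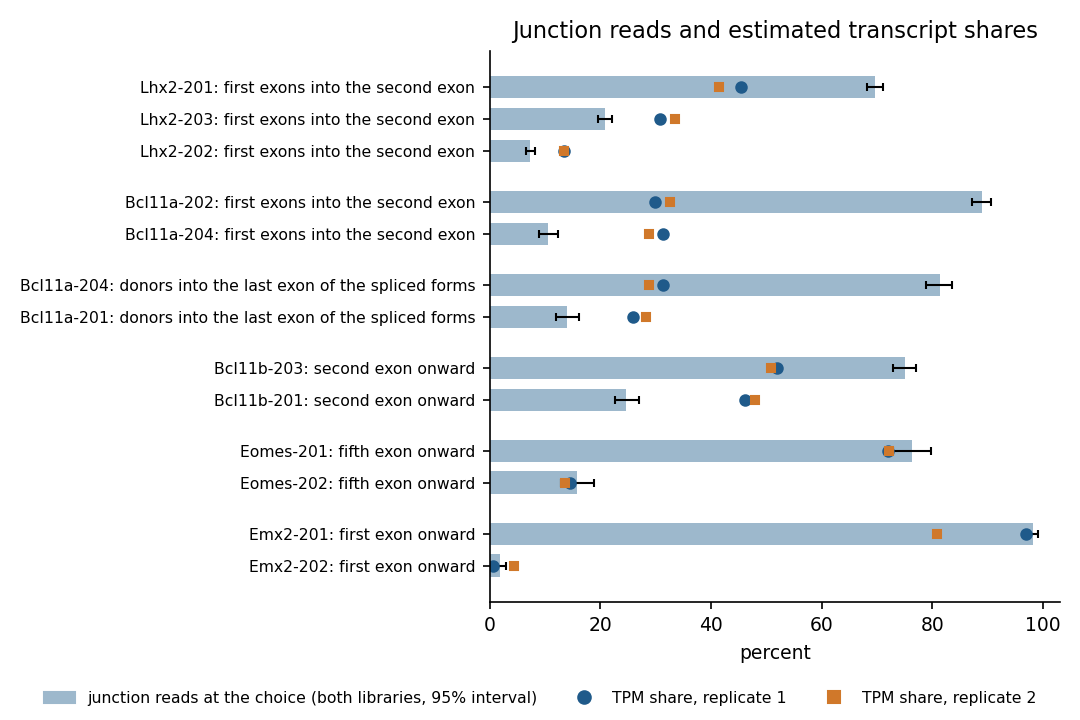
Bars give the percent of junction reads at 6 splice choices in 5 of the factors (both libraries summed, with the 95% exact interval), and points give the percent of the gene's TPM assigned to the named transcript in replicate 1 (circle) and replicate 2 (square). A bar counts reads of every annotated transcript with that join. Of these there are 4 for the first exon of Bcl11a-202 and 2 for that of Lhx2-203. The last join of Bcl11a-204 also has 2, and Bcl11a-202 lacks it. Bars and points of the same transcript thus have unlike bases. Both readouts lie nearer to each other for Eomes-201 (76.4% of junction reads, 71.9% and 72.1% of TPM), while Bcl11b-201 has 24.7% of junction reads and 46.1% and 47.8% of TPM.

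Emx2os, the antisense RNA of Emx2, starts on the minus strand at base 59458635 of chromosome 19, inside the first exon of Emx2-201 and 263 bases from its start, and stood at 2.38 and 1.77 TPM (2.08 ± 0.431 TPM, SD, n = 2) on 783 and 522 expected counts. Its log2 ratio without a pseudocount was -0.43, near the -0.36 of Emx2 in TPM, where scaled counts gave -0.63 for Emx2. Gm12063, a noncoding gene that starts 1497 bases before Bcl11a on the same strand, stood at 11.7 and 4.39 TPM, a ratio of -1.24, where Bcl11a was at 0.21. Gm27197, antisense within Lhx2, stood at 1.97 and 0.73 TPM on 35 and 12 expected counts. A830031A19Rik, 4930538E20Rik, Gm12064, Gm13584 and Gm25966 were at 0.14 TPM or less in each library, and Gm33460, which overlaps the end of Eomes, has no row in the tables used. The labels and headers do not say whether the counting used strand, so reads of Emx2 and Emx2os over their shared bases may not be separated.

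The promoter windows of RefSeq (GRCm38.p6, 250 bases before to 50 after a start) held 8 of the 9 factors. They held from 7 CpG for Tbr1, the median of 32851 windows, through 9 for Bcl11b and 10 for Eomes to 34 for the first window of Lhx2 and 37 for Emx1. Motifs of 5 kinds were searched on both strands: TAATTA, a homeodomain core, was in 2 of 8 factors (Tbr1 and Emx2) and in 5.29% of all windows; CAGATG, an E-box, in 1 (Lhx2) and 17.2%; AGGTGTGA, a T-box core, in 0 and 1.28%; TATAAA in 1 (Bcl11b) and 13.6%; and GGGCGG, a GC box, in 6 and 35.7%. A match is only a match of letters. The TAATTA of Emx2 lies 36 bases after the RefSeq start, in a window that holds the annotated start of Emx2os but not that of Emx2-201, which is 318 bases from the RefSeq start; for Emx1-201 that distance is 493 bases. The bases before the starts of Tbr1 (chr2:61804203-61804452, plus strand) and Eomes (chr9:118477939-118478188, plus strand) are shown because these T-box genes are expressed in succession in the same lineage; capitals mark the motifs, which are 2 TAATTA and, on the other strand, 1 GC box in Tbr1 and none of the 5 in Eomes.
Tbr1 upstream: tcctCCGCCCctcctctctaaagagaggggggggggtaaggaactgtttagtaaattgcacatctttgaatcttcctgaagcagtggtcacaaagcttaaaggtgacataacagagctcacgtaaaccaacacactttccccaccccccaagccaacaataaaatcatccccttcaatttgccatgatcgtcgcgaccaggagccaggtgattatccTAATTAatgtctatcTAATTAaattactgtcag
Eomes upstream: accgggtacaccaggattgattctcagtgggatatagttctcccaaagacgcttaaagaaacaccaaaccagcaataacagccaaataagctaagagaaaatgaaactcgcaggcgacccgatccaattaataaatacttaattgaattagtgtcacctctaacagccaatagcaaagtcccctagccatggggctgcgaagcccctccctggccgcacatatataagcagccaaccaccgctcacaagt
The Tbr1 window ends where Tbr1-201, the form with over 97% of its TPM, begins, and the 2 homeodomain cores start 33 and 18 bases before that site. The start in the Eomes window lay 23 bases from that of Eomes-202. Eomes-201, the form with most of its TPM, starts further on, at base 118478344. The stretches of Tbr1 and Eomes thus lie at unlike distances from their leading transcripts. The start in the Bcl11a window lay 25 bases from that of Bcl11a-204, not at the first exon that gave 88.9% of junction reads.

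The second set of gene values, made by the authors on mm9 with Ensembl 65, ordered the differences as the TPM did, except that Bcl11b and Emx2 traded places. It gives 2 RPKM values per gene that are not tied to a library, so only their distance is used. The authors' values lay 6.13-fold apart for Emx1 (1.14 and 6.99 RPKM), 5.80-fold for Fezf2, 3.36-fold for Eomes, 2.32-fold for Bhlhe22, 2.22-fold for Tbr1, 1.96-fold for Lhx2, 1.36-fold for Bcl11b, 1.31-fold for Emx2 and 1.02-fold for Bcl11a. Of the 9, 8 had the higher value in the same column, and Bcl11a in the other. These values come from the same reads as the mm10 tables and are no independent replicate.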

How the data were processed

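Polyadenylated RNA longer than 200 nt was sequenced from 2 libraries with 101-nt paired stranded reads and spike-in RNA, per the labels. The authors deposited expected counts, TPM and FPKM per gene and transcript of each library, estimated from transcriptome alignments to mm10 with GENCODE M4 per the text deposited with the files (tool not stated). The deposited TPM is scaled over all rows, so that mitochondrial and spike-in rows take 12.5% of it in replicate 1 and 16.5% in replicate 2. The deposited credibility bounds of TPM have no stated level. The authors deposited mm9 junction read counts with both replicates summed, contigs with a signal of unstated scale, and for both a reproducibility fraction for which low is reproducible. The RPKM values of the deposited mm9 gene table are not tied to a library. Junctions were named from the authors' mm9 exon list, and mm9 and mm10 positions were never mixed.

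Symbols, biotypes and positions came from GENCODE vM21 on mm10, by Ensembl identifier; 884 of 43346 genes had no symbol there. Spike-in rows took 4.12% and 3.53% of counts, and they and 26248 rows with numbers for names, which hold no counts, were left out. Levels are TPM per library with mean and SD. Differences are log2(TPM + 1) of replicate 2 minus replicate 1, which understates differences of low genes. Counting intervals are exact (Clopper-Pearson, 95%), on expected counts rounded to whole numbers and TMM library sizes (edgeR 4.0.16; genes with 10 counts or more), and cover counting error only. Alternatives were posterior mean TPM, FPKM, rescaled TPM, DESeq2 1.42.0 size factors, other pseudocounts and filters, mm9 values and each library left out. Coding sequence and joins came from GENCODE vM21 transcripts, promoters from RefSeq. No protein sequences were used here, so protein lengths and identities were not computed. The steps were tested on simulated data. Python 3.11.15, numpy 2.4.6, pandas 2.3.3 and scipy 1.17.1 were used.

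The rule for named genes took the 9 factors, the relatives Fezf1, Lhx9, Bhlhe23 and Tbx21, genes that overlap a factor or start within 5000 bases of it, the 3 highest of each pathway and brain region list and any of these that differed 2-fold, the 10 genes with the lowest ratio and the gene nearest to each factor. Single values of some list genes are not reported here. The factors and the 14 lists were chosen with earlier results of these data known, so their differences are no independent support. No p-value was computed, because each side of the comparison is a single library.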

Additional observations from a re-analysis of the deposited data

How the results depend on the processing

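All 9 factors were detected under each alternative except at 10 TPM, where 8 remained above the threshold in both libraries. The median TPM of the factors, 35.2, was 4.30 as the mean of the authors' mm9 RPKM values, which are on another scale. The median log2 ratio of the factors, -0.93, was -0.98 with FPKM, -0.87 with TPM rescaled without mitochondrial and spike-in rows, and -1.03 with counts scaled by TMM or by DESeq2 size factors. With both count scalings 6 of 9 factors, not 3, were 2-fold or more lower. Among all genes, 173 were 2-fold or more lower, and the number was 261 with a pseudocount of 0.1, 288 with none, and 278 with TMM or DESeq2 scaling. Over the 8 settings no factor changed sign: Emx1 ranged from -2.49 to -2.28, Fezf2 from -2.44 to -2.23 and Bcl11a from 0.15 to 0.28. Leaving out a library turned 2 of the pairs. Emx1 over Emx2 had a log2 ratio of 0.69 ± 1.46 (SD, n = 2), and it was -0.34 without replicate 1 and 1.73 without replicate 2. Bcl11a over Bcl11b had 0.17 ± 0.329 (SD, n = 2), and it was -0.0646 without replicate 2 and 0.40 without replicate 1. The cause was not tested. No paired analysis was possible because both libraries belong to 1 group. With at least 848 expected counts per factor and library, counting error is small beside the spread between the 2 libraries, whose number limits every statement.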

Other observations

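Bcl11b used pairs of neighbouring splice sites. At the acceptor of its second exon, 401 junction reads used the annotated site and 114 a site 3 bases further in, which is 22.1% (95% exact interval 18.6 to 26.0) of both. At the donor of the exon that only Bcl11b-201 keeps, 295 reads used the annotated site and 110 a site that makes the exon 12 bases shorter, which is 27.2% (22.9 to 31.8). Neither of the 2 inner sites is tagged as annotated in the junction list, and the authors' reproducibility values were 0.001 and 0, where low is reproducible. Both differences are multiples of 3 bases. In Tbr1 the highest junction without an annotation tag, with 400 reads, has the length of the annotated second intron, 503 bases, and lies 3 bases from it.

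The contigs, stretches of read coverage on 1 strand of mm9 with the authors' signal values, were searched on the opposite strand within 2000 bases of the outermost start of each gene. At Bcl11a the opposite contig had a signal of 0.527, or 9.71% of the highest contig on the gene's own strand there, at Bcl11b 0.292 (7.85%) and at Bhlhe22 0.625 (7.33%), where it was 3622 bases long and spanned the start. At Tbr1, Eomes, Fezf2, Emx1 and Lhx2 no opposite contig in that window exceeded 2.86% of the gene's own. Inside the genes opposite contigs reached 0.487 in Lhx2 (1712 bases long), where the highest contig on its own strand had 6.17. In Bcl11b they reached 0.459 against 3.81, on a contig of only 49 bases, shorter than a read. In Eomes they reached 0.101 (611 bases long) against 3.27. Contigs at Emx2 were not analysed here. Annotated genes lie on the opposite strand within Lhx2 (Gm27197 and Gm13584), over the end of Eomes (Gm33460) and before Bcl11a (A830031A19Rik). Contig positions are on mm9 and were not carried to mm10, so whether these contigs belong to those genes was not tested. The contigs were noticed after the values were seen, no background was computed for them, and reads that carry the wrong strand were not tested for.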
